A study of Mus musculus with 12 samples.

Results

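Itaconic acid (IA) and methylsuccinic acid (MetSA) share 1 carbon skeleton, a dicarboxylic acid with a single-carbon branch. In itaconic acid the branch carbon is joined to the chain by a double bond, and in methylsuccinic acid that bond is saturated. The comparison takes the 3 libraries of macrophages given itaconic acid and the 3 given methylsuccinic acid, 6 of the 12 libraries of the series, over all genes. The cells were wild-type mouse bone marrow-derived macrophages, primary macrophages grown from marrow, labelled as 3 biological replicates per group. Each acid was added from a 50 mM stock to 5 mM and the cells were exposed for 16 h. No inflammatory stimulus is named for these samples, and medium alone (M, 3 libraries) gives the background level beside each result. The remaining 3 libraries, cells given malonic acid, entered the estimate of spread and are not described. The sources used here do not say whether replicates came from separate mice, so the p-values measure the spread between cultures as labelled. Dose and time were equal in the compared groups, and this was the only pair of compounds compared.

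Itaconate is made from cis-aconitate by aconitate decarboxylase 1 (Acod1) in activated macrophages. Its double bond can react with cysteine thiols, and it also inhibits succinate dehydrogenase, the enzyme that links the citric acid cycle to the respiratory chain. The best known thiol sensor is KEAP1, which holds the transcription factor NRF2 in check until an electrophile modifies it, after which NRF2 switches on glutathione, thioredoxin and iron-handling genes. Macrophages also run an interferon programme, in which nucleic acid sensors induce type I interferon and the factors STAT2 and IRF9 then act through a promoter element called ISRE.

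Totals ran from 50083082 to 54252486 counts in the 6 libraries. MetSA replicate 3 stood apart from the other libraries of its group. Mitochondrially encoded genes took 1.28% of its counts, against 0.759% and 0.833% in MetSA replicates 1 and 2, 0.673% to 0.811% in IA and 1.15% to 1.36% in M. On the first principal component of the 6 libraries, which held 31.1% of the variance, the IA libraries lay at 14.31 to 24.26, MetSA replicates 1 and 2 at -7.858 and -13.48, and MetSA replicate 3 at -38.39. Gene list results are therefore given with all libraries and again without MetSA replicate 3. Lyz2, the macrophage lysozyme, was measured at 15406, 16217 and 20923 CPM (counts scaled to library size) in the MetSA libraries and 13686, 15312 and 15913 CPM in the IA libraries. All 16 listed macrophage markers passed the filter on low counts. In these bulk samples, fewer cells of a type and less RNA per cell cannot be told apart.

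Acids that differ by the double bond gave a broad set of mostly small differences. Genes with an adjusted p under 0.05 (Benjamini-Hochberg, over all genes) were called, and fold changes are log2 values of IA minus MetSA. Of 14113 genes tested, 864 (6.12%) were called, 560 (3.97%) higher in IA and 304 (2.15%) lower. These shares are the background for every list count below, and 6620 of the 14113 genes had a value above 0. The median absolute log2 difference of the called genes was 0.41, and 638 of them (73.8%) differed by less than 1.5-fold. At least 2-fold differences were called for 63 genes (0.446%), 43 higher and 20 lower. For 9046 genes (64.1%) the 95% interval of the difference lay within 1.5-fold either way, so any difference for these genes is small at this precision. A further 4620 genes were neither called nor bounded in that way. Of the 14113 genes, 1958 had every IA library above every MetSA library and 1690 had every IA library below. Among the 864 called genes 855 showed no such overlap of the groups, so no overlap adds little to a call. The higher calls made up 64.8% of all calls under TMM scaling, 54.2% under upper-quartile scaling and 29.7% with no scaling factor. Single libraries mattered to the totals. Higher and lower calls numbered 329 and 97 without IA replicate 1, 353 and 214 without IA replicate 2, and 320 and 100 without IA replicate 3. They numbered 429 and 193 without MetSA replicate 2 and 351 and 154 without MetSA replicate 3. Of the 505 calls made without MetSA replicate 3, 448 were also called with all libraries.

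**Figure D1:**
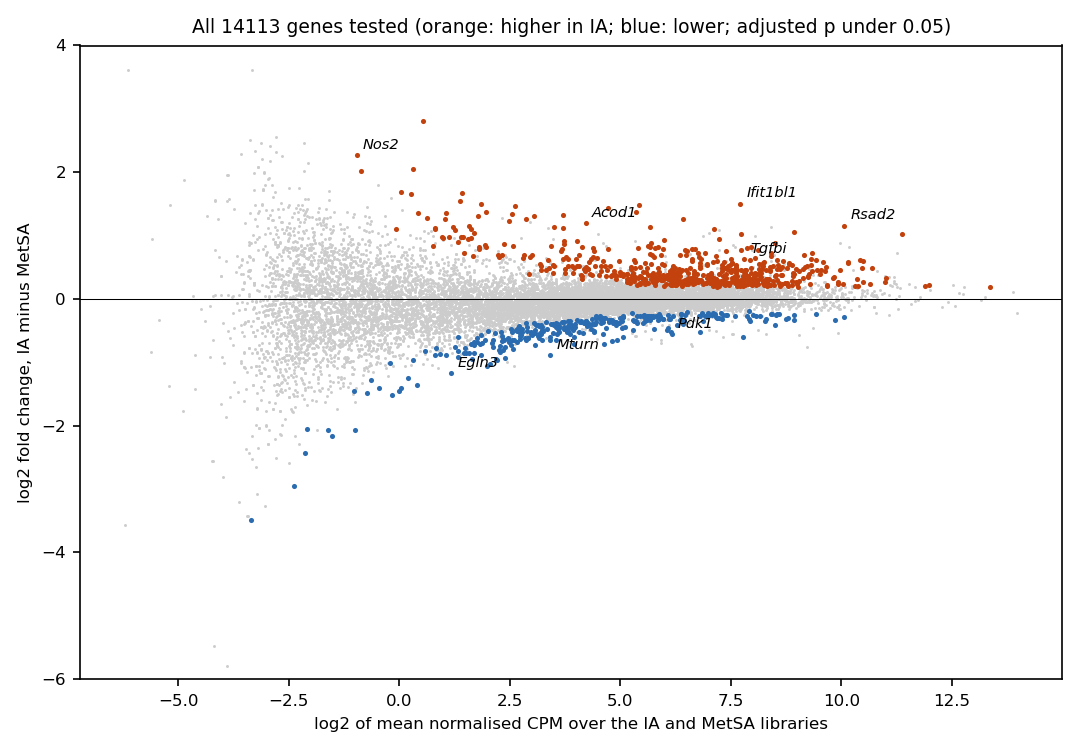
Each point is 1 of the 14113 genes tested. The x axis is the log2 of its mean normalised CPM over the IA and MetSA libraries and the y axis is its log2 fold change of IA minus MetSA. The 560 genes called higher in IA (orange) and the 304 called lower (blue) lie mostly close to 0, and the largest called differences belong to genes with few counts.

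**Figure D2:**
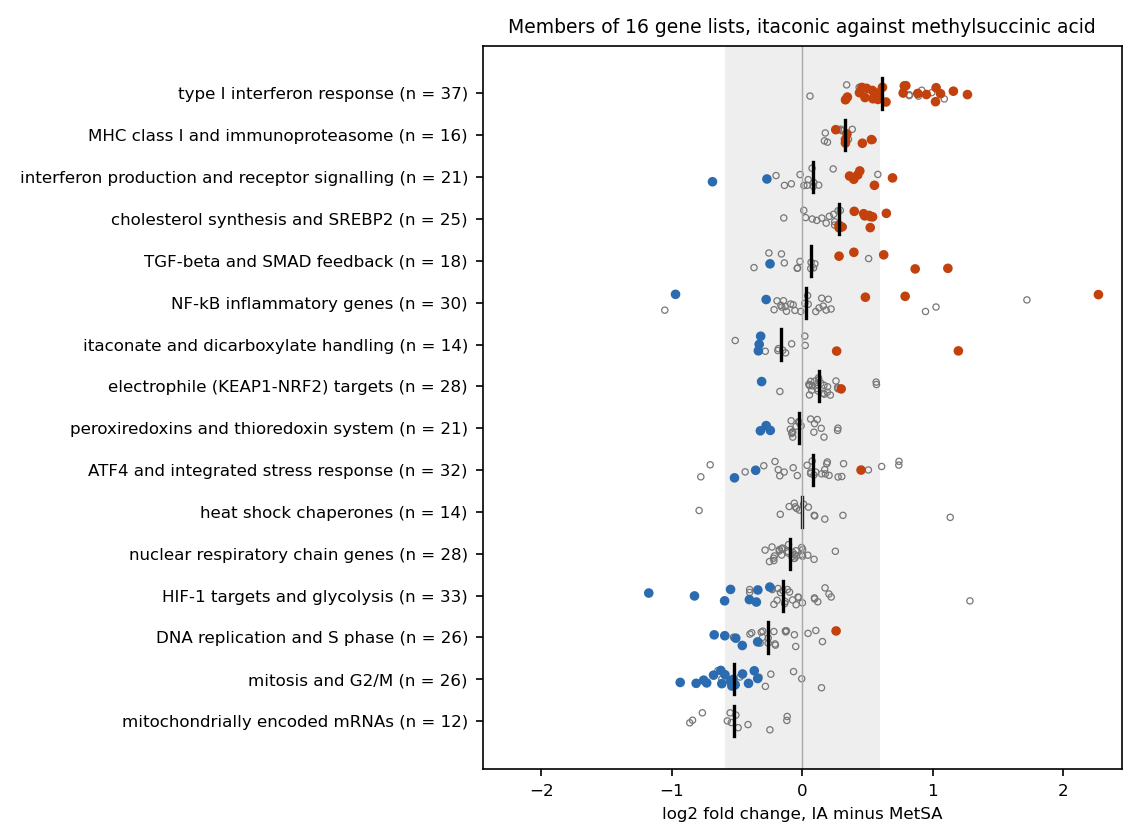
Each circle is a tested member of a gene list, placed on the x axis by its log2 fold change of IA minus MetSA, with the lists in rows. Filled circles were called (orange higher, blue lower in IA), open circles were not, black bars are list medians and the grey band marks 1.5-fold either way. The interferon list lies to the right with a median of 0.61, mitosis genes lie to the left at -0.52, and the electrophile list centres at 0.12.

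Several of the largest rises among genes of at least 10 CPM belonged to interferon-associated families. Ifit1bl1, a member of the interferon-induced tetratricopeptide family, was 109 CPM on average in MetSA and 311 CPM in IA (adjusted p = 0.0389). Slfn4, of the schlafen family, was 1.48 higher on the log2 scale. Treml2, a receptor of the TREM family, rose by 1.44. Gbp6 (a guanylate-binding GTPase) rose by 1.37, Apol9b (an apolipoprotein L) by 1.32, Slfn1 by 1.27, Rsad2 by 1.16 and Cfb (complement factor B) by 1.13. These 8 calls depended on single libraries or settings, with Slfn1 lost in 14 of 22 alternative settings, Cfb in 12 of 22, and Slfn4 and Ifit1bl1 in 10 of 22 each, with adjusted p up to 0.147, 0.15, 0.129 and 0.103. The Treml2 call was lost without IA replicate 1 or 3 or MetSA replicate 2 or in the fit of the 6 libraries alone (adjusted p up to 0.104), that of Apol9b without IA replicate 1 or 3 or MetSA replicate 2 or in the fit of the 6 libraries alone (adjusted p up to 0.0988), and that of Gbp6 in the fit of the 6 libraries alone (adjusted p = 0.0867). Pou3f1, a POU domain transcription factor, stood at 6.79, 4.80 and 2.77 CPM in MetSA and 10.9, 12.2 and 12.5 CPM in IA, a log2 difference of 1.31 (SE 0.24, adjusted p = 0.00511). C4b, complement component 4, stood at 6.20, 4.19 and 2.58 CPM in MetSA and 11.3, 9.76 and 9.98 CPM in IA, a difference of 1.26 (SE 0.23, adjusted p = 0.0032). Plac8 stood at 9.78, 6.36 and 4.94 CPM in MetSA and 15.4, 14.4 and 16.6 CPM in IA, a difference of 1.14 (SE 0.19, adjusted p = 0.00211). For each of these last 3 genes MetSA replicate 3 was the lowest library. No overlap between the acids was a condition of this ranking, so it holds for all the genes ranked here and is no separate support for them. Cfb shares 66.9% of its 100-base stretches with another annotated gene, Gbp6 64.5%, Apol9b 36.7% and C4b 15.2%, so reads may be split between copies for these 4.

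The largest falls among genes of at least 10 CPM were smaller and mixed in function. Mturn, a neural progenitor differentiation regulator, stood at 21.6, 19.9 and 19.5 CPM in M, 11.9, 13.5 and 16.2 in MetSA and 5.94, 8.94 and 7.64 in IA, a log2 difference of -0.89 (SE 0.14, adjusted p = 0.00107) between the acids. Cdr2 differed by a log2 value of -0.73, Cenpa (the centromeric histone) -0.72, Racgap1 (a cytokinesis GTPase activator) -0.71 and Stmn1 (stathmin, a microtubule destabiliser) -0.66. Egr2, an immediate early transcription factor, fell by 0.65 on the log2 scale, and Herpud1, a component of endoplasmic reticulum-associated degradation, fell by 0.65. Herpud1 was highest in MetSA replicate 3, with 32.0, 35.7 and 43.7 CPM in the 3 MetSA libraries and 21.4, 24.5 and 25.0 CPM in IA. No overlap between the groups was a condition of this ranking as well. Mmp9 (-0.65), Uck2 (-0.64), Nusap1 (-0.62), Igfbp4 (-0.60) and Cebpd (-0.60) complete the 12. Those calls were lost without IA replicate 1 or 2 or 3 or MetSA replicate 3 (adjusted p up to 0.0937) for Mmp9, IA replicate 1 or in the fit of the 6 libraries alone (adjusted p up to 0.0715) for Uck2, IA replicate 1 or in the fit of the 6 libraries alone (adjusted p up to 0.0538) for Nusap1, M replicate 1 or 2 or 3 or IA replicate 1 or 3 or MA replicate 1 or 2 or 3 or MetSA replicate 2 or in the fit of the 6 libraries alone (adjusted p up to 0.143) for Igfbp4 and IA replicate 1 or 2 or 3 or MetSA replicate 1 or 2 or 3 (adjusted p up to 0.146) for Cebpd. Stmn1 shares 12.8% of its 100-base stretches with other genes, and 15% of the exons of Cebpd overlap another gene.

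Interferon-stimulated genes were higher in IA than in MetSA. The type I interferon list had 37 tested members, of which 25 were called higher in IA and none lower, beside 3.97% and 2.15% of all genes. The list's median log2 fold change was 0.61, all 37 values were above 0, and the median over all genes was -0.02. Against medium the median log2 difference of the list was 2.79 in IA and 2.18 in MetSA. Comparisons with M, here and for the other lists, share the medium libraries. Without MetSA replicate 3 the list held 14 higher and 0 lower with a median of 0.51, and the count was 16, 13 and 12 without IA replicates 1, 2 and 3, 13 without MetSA replicate 2 and 26 without MetSA replicate 1. The mean log2 CPM of the list was 8.30, 8.11 and 7.75 in MetSA replicates 1, 2 and 3 and 8.67, 8.82 and 8.80 in the IA libraries, so the groups did not overlap.

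Slfn8 (ENSMUSG00000035208, chromosome 11, 83002158 to 83020810 on GRCm38), a schlafen family member, stood at 134, 150.2 and 139.5 CPM in M, 403, 369.6 and 325 in MetSA and 529, 550.04 and 535 in IA. The log2 difference between the acids was 0.56 (SE 0.07, adjusted p = 0.000187), with every IA library above every MetSA library. Rsad2 (ENSMUSG00000020641, chromosome 12, 26442746 to 26456452 on GRCm38), which encodes the antiviral enzyme viperin, stood at 65.8, 85.5 and 100.02 CPM in M, 792, 668 and 529 in MetSA and 1249.8, 1692 and 1497 in IA, a difference of 1.16 (SE 0.22, adjusted p = 0.0172). The Rsad2 groups did not overlap, which its place among the largest rises required. The Rsad2 call was lost without IA replicate 2 or 3 or MetSA replicate 2 or 3, with adjusted p up to 0.0585. The windows before the RefSeq start sites of these genes are printed from GRCm38.p6, 5' to 3' on the gene's own strand, and were chosen after the values were seen. Each window is the 250 bases before a start. Capitals mark the ISRE letters, GAAA, any 2 bases, then GAAA, searched on both strands. In Rsad2 (chr12:26456453-26456702, minus strand) the match begins 120 bases before the start, and in Slfn8 (chr11:83020811-83021060, minus strand, the more upstream of its 2 listed starts) 48 bases before it.
Rsad2: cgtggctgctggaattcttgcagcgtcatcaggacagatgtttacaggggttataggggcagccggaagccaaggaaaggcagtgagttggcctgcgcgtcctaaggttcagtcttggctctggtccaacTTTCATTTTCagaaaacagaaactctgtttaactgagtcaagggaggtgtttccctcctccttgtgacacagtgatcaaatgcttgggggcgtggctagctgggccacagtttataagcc
Slfn8: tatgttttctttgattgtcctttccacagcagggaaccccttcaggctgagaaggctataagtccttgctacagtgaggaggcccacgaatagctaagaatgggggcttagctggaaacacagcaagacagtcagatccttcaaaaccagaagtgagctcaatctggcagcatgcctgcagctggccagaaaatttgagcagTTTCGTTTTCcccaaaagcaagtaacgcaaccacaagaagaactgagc

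The ISRE letters were present in 3.44% of all 32851 RefSeq promoter windows of 300 bases, which reach from 250 bases before a start to 50 bases after it. They were present in 19 of 33 windows of the interferon list (57.6%), in 11.5% of 581 windows of genes called higher in IA and in 2.58% of 310 windows of genes called lower, beside 3.3% of windows of all genes tested. Of the motifs given here and with other lists, the antioxidant letters can share bases with the HIF-1 core and the cell cycle letters with the ISRE. A match describes letters and does not show binding.

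Other members with a call under every alternative setting included Herc6, a HECT ubiquitin ligase, at 229, 217 and 167 CPM in MetSA and 324, 367 and 356 CPM in IA, a log2 difference of 0.77 (SE 0.09, adjusted p = 0.000303). Ifih1, the cytoplasmic RNA sensor MDA5, stood at 265, 251 and 214 CPM in MetSA and 337, 377 and 369 CPM in IA, a difference of 0.57 (SE 0.08, adjusted p = 0.00075). In both genes the IA libraries lay above the MetSA libraries and MetSA replicate 3 was the lowest. Herc6 shares 10.3% of its 100-base stretches with other genes. Irf7, the master regulator of interferon genes, was not called by edgeR, with 1077, 909 and 519 CPM in MetSA and 1571, 1375 and 1477 CPM in IA and a difference of 0.82 (adjusted p = 0.116). It was called by DESeq2 and by edgeR with no filter on low counts, and in no other alternative setting (adjusted p up to 0.273). Its MetSA libraries spread from 519 to 1077 CPM. Ifnb1, which encodes interferon beta, had too few counts to test, with 2 to 10 counts in each MetSA library and 4 to 8 in each IA library.

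Sensors and signalling genes of the interferon pathway gave calls in both directions. Of 21 tested, 6 were called higher and 2 lower, beside 3.97% and 2.15% of all genes, with a median of 0.08. Endosomal nucleic acid receptors were among the higher ones. Tlr3, the receptor for double-stranded RNA, stood at 23.2, 23.1 and 23.6 CPM in M, 67.1, 63.2 and 55.8 in MetSA and 96.5, 107 and 97.1 in IA, a log2 difference of 0.69 (SE 0.07, adjusted p = 5.29e-05). Tlr7, a receptor for single-stranded RNA, rose from 457, 429 and 452 CPM in MetSA to 615, 589 and 611 CPM in IA, a difference of 0.44 (SE 0.06, adjusted p = 0.000329). Tlr9, a receptor for unmethylated DNA, differed by 0.55 (SE 0.09, adjusted p = 0.00263). For these 3 receptors the groups did not overlap and the call was kept under every alternative setting. Socs3, a feedback inhibitor of cytokine receptors, was lower in IA by -0.69 (SE 0.18, adjusted p = 0.026), and Ifngr1, a chain of the interferon gamma receptor, by -0.27 (SE 0.07, adjusted p = 0.0332). The Socs3 call was lost without IA replicate 1 or 2 or MetSA replicate 2 or 3 or in the fit of the 6 libraries alone (adjusted p up to 0.122) and the Ifngr1 call without IA replicate 1 or 2 or 3 or MetSA replicate 2 or 3 or in the fit of the 6 libraries alone (adjusted p up to 0.158). With MetSA replicate 3 left out, 5 higher and 0 lower were called. Antigen presentation genes of class I followed the higher direction, with 6 of 16 called higher and none lower, beside the same shares of all genes. Their median was 0.33 and all 16 values were above 0. Tap1, the peptide transporter, differed by 0.46 (SE 0.08, adjusted p = 0.00319) and Erap1, a peptide trimmer, by 0.33 (SE 0.07, adjusted p = 0.00511), with 11.5% of Erap1 exons overlapping another gene. That list held 3 higher and 0 lower without MetSA replicate 3, with a median of 0.20, and it held 13 higher without MetSA replicate 1 and 3 without IA replicate 2 or 3.

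**Figure D3:**
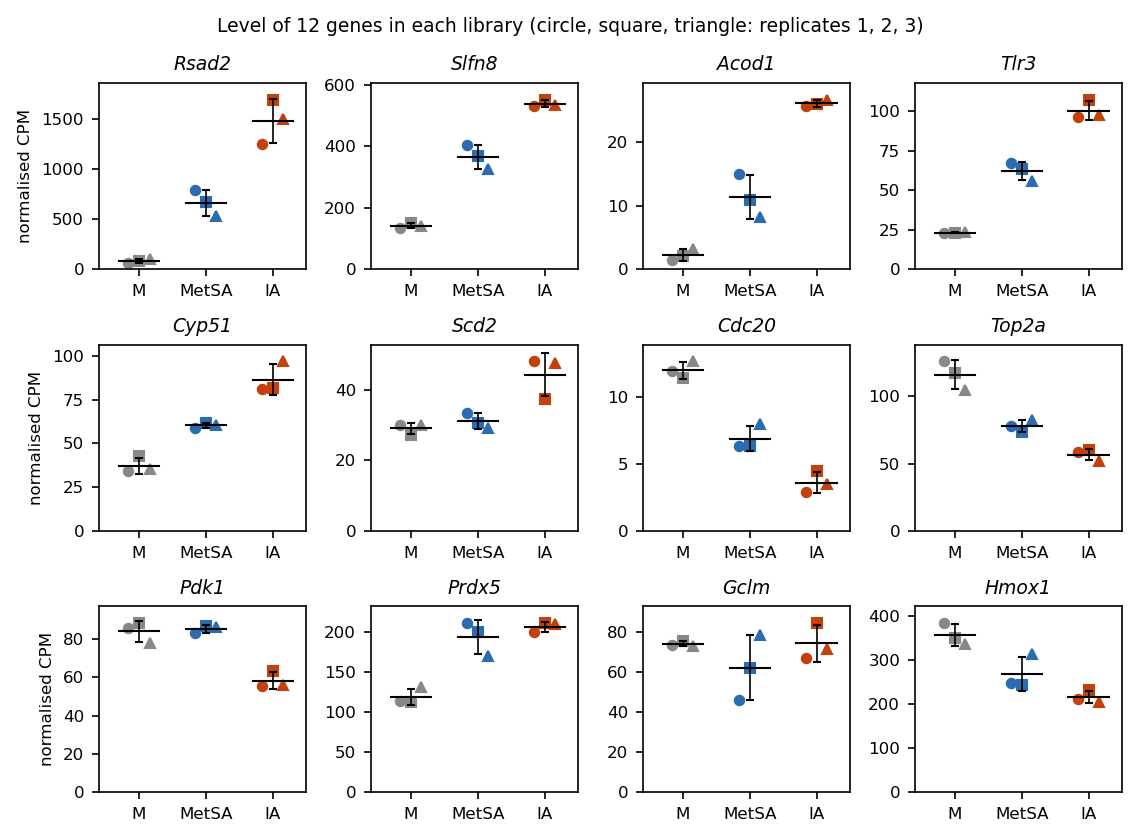
Normalised CPM (y axis, linear from 0) of 12 genes in each library of M, MetSA and IA. Symbols are single libraries, horizontal bars are group means and error bars are 1 SD of 3 libraries. Rsad2, Slfn8, Acod1, Tlr3, Cyp51 and Scd2 have all IA libraries above all MetSA libraries, Cdc20, Top2a and Pdk1 have all IA libraries below them, and the groups overlap for Prdx5 and Gclm.

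Genes that make, carry or act beside itaconate gave calls in both directions, 2 higher and 3 lower of 14 tested. Over all genes 3.97% were called higher and 2.15% lower. The median of the list was -0.17. Acod1 (ENSMUSG00000022126, chromosome 14, 103046977 to 103056573 on GRCm38), the enzyme that produces itaconate, stood at 1.49, 2.09 and 3.19 CPM in M, 15.0, 10.9 and 8.22 in MetSA and 25.6, 25.9 and 26.5 in IA. Its log2 difference between the acids was 1.20 (SE 0.23, adjusted p = 0.0115), with no overlap, and 1.01 (adjusted p = 0.0184) without MetSA replicate 3. Against medium the log2 differences of Acod1 were 3.52 for IA and 2.32 for MetSA. Lacc1, a macrophage immunometabolic enzyme, rose by 0.26 (adjusted p = 0.0483), a call lost in 10 of 22 alternative settings (adjusted p up to 0.153). Slc25a10, the mitochondrial dicarboxylate carrier, was lower in IA at 45.1, 43.6 and 46.8 CPM against 53.5, 55.7 and 61.9 CPM in MetSA, a difference of -0.34 (SE 0.07, adjusted p = 0.0054). Slc16a3, a monocarboxylate transporter that exports lactate, differed by -0.32 (SE 0.07, adjusted p = 0.00892), and Suclg2, a subunit of succinyl-CoA ligase named here after its value was seen, by -0.33 (SE 0.08, adjusted p = 0.0189). The Slc16a3 call was lost without IA replicate 3 or MetSA replicate 2 (adjusted p up to 0.0555). Tet2, a DNA demethylase, differed by 0.08 (adjusted p = 0.655) with an interval of -0.10 to 0.27, and Slc13a3, a sodium-coupled dicarboxylate importer, by -0.19 (adjusted p = 0.48) with an interval of -0.47 to 0.10. Without MetSA replicate 3 the list held 1 higher and 2 lower, and the Suclg2 call was lost (adjusted p = 0.0935).

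In the main fit, the share of calls in the electrophile response lay near that of all genes. This programme reads out thiol-reactive compounds. Of 28 tested NRF2 targets, 1 was called higher in IA and 1 lower, 3.57% each, beside 3.97% and 2.15% of all genes. At an unadjusted p under 0.05 the list held 6 higher and 1 lower. DESeq2 called 4 higher and 1 lower, beside 913 and 435 of 12197 genes. The fit with a block for replicate number called 4 higher, beside 882 of 14113 genes. The list's median log2 fold change was 0.12, and 23 of 28 members had a 95% interval within 1.5-fold either way, beside 64.1% of all genes. Values were nonetheless above 0 for 26 of 28, beside 6620 of 14113 genes tested. Against medium the list medians were -0.0046 in IA and -0.16 in MetSA. The called genes were Esd, an esterase that hydrolyses S-formylglutathione, at 0.30 (SE 0.08, adjusted p = 0.0273), and Hmox1, the haem-degrading enzyme haem oxygenase 1, at -0.31 (SE 0.09, adjusted p = 0.0447). Hmox1 stood at 385, 351 and 336 CPM in M, 247, 245 and 314 in MetSA and 212, 231 and 205 in IA, lowest in the IA libraries. The Hmox1 call was lost in 10 of 22 alternative settings (adjusted p up to 0.191) and the Esd call in 6 of 22 (up to 0.129).

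The count for this list also depended on MetSA replicate 3. The mean log2 CPM of the list was 6.11 and 6.16 in MetSA replicates 1 and 2, 6.39 in MetSA replicate 3, 6.30, 6.44 and 6.39 in IA and 6.38 to 6.44 in M. With that library left out, 6 members were called higher in IA and none lower, with a median of 0.22, beside 351 higher of 14471 genes. Srxn1, the sulfiredoxin that repairs peroxiredoxins, stood at 90.2, 91.7 and 123 CPM in MetSA and 124, 123 and 122 in IA, a difference of 0.27 (SE 0.09, adjusted p = 0.0876) with all libraries (called by DESeq2 and with no filter on low counts) and 0.43 (adjusted p = 0.000635) without MetSA replicate 3. Gclm, the modifier subunit of glutathione synthesis, stood at 46.1, 62.1 and 78.6 CPM in MetSA and 66.9, 84.7 and 71.8 in IA, a difference of 0.26 (adjusted p = 0.413) with all libraries and 0.46 (adjusted p = 0.0404) without MetSA replicate 3. The other called members were Esd 0.39 (adjusted p = 0.00355), Prdx1, a peroxiredoxin, 0.37 (adjusted p = 0.01), Cat, catalase, 0.30 (adjusted p = 0.00692) and Slc7a11, the cystine importer, 0.79 (adjusted p = 0.0495), of which Prdx1 and Cat were named after their values were seen. With all libraries Slc7a11 differed by 0.19 (adjusted p = 0.766), and no other alternative setting called it. The M libraries held 121, 116 and 118 CPM of Srxn1 and 73.8, 75.7 and 73.3 CPM of Gclm, so M overlapped IA for Gclm and lay just below it for Srxn1. Mitochondrial transcripts and the summed level of the 16 macrophage markers, 39630 CPM in MetSA replicate 3 against 33980 and 34320 in MetSA replicates 1 and 2, moved with this library, and their part in the result was not tested. Much of that sum, and most of its rise, came from Lyz2, whose levels are given above.

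In the window before the start of Gclm (chr3:122245307-122245556, plus strand, RefSeq on GRCm38.p6), shown because its gene is a reference NRF2 target, capitals mark the letters TGACNNNGC of the antioxidant response element on either strand, 134 bases before the start. The letters occurred in 12.4% of all windows and in 9 of 30 windows of the electrophile list (30%). Among genes called higher they occurred in 13.4% of windows and among genes called lower in 14.5%, beside 14.5% for all genes tested.
Gclm: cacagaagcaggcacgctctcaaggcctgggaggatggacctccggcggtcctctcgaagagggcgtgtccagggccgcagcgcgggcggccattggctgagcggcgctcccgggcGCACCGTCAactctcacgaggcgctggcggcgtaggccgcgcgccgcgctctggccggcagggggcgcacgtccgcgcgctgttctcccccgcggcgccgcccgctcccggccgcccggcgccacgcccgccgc

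**Figure D4:**
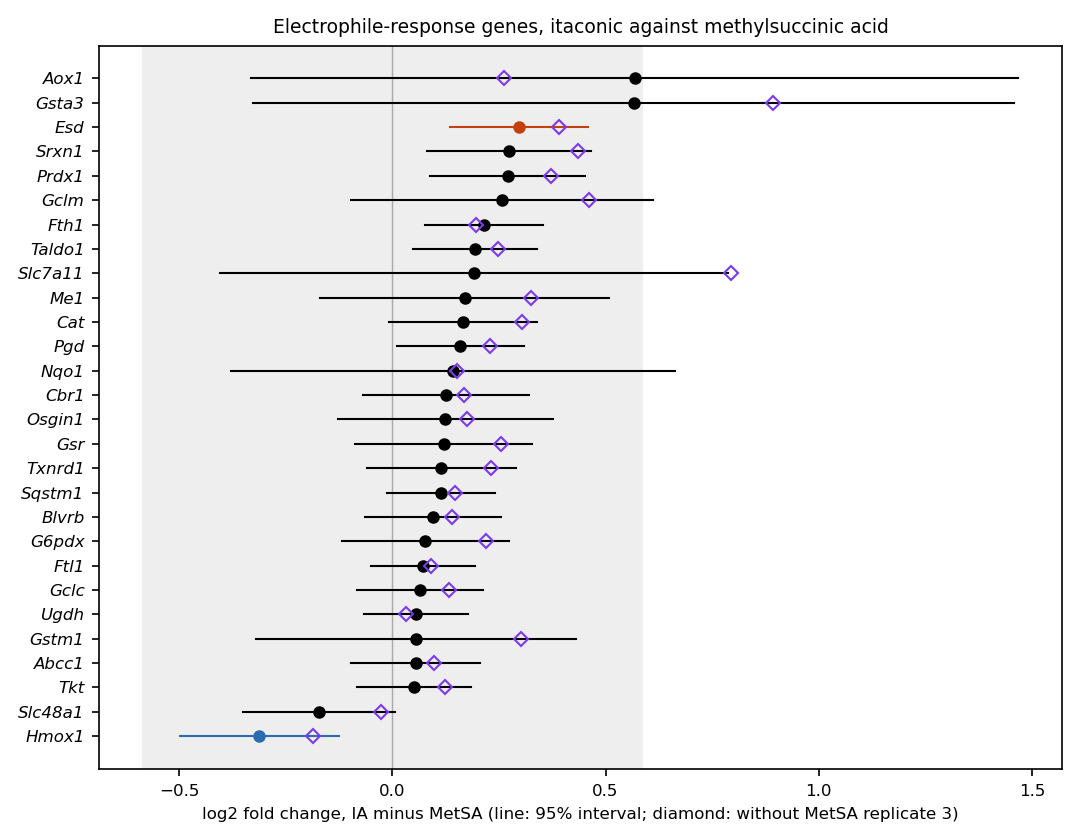
Log2 fold change of IA minus MetSA (x axis) with its 95% interval for the 28 tested electrophile-response genes (rows), the grey band marking 1.5-fold either way. Diamonds give the value without MetSA replicate 3. Esd is called higher (orange) and Hmox1 lower (blue), and most diamonds lie to the right of their circles.

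Of 7 regulators of this programme, 2 were called higher in IA and none lower, beside 3.97% and 2.15% of all genes. Of the 7, 5 had an interval within 1.5-fold either way, beside 64.1% of all genes. Nfe2l2, which encodes NRF2, stood at 305, 324 and 356 CPM in MetSA and 324, 316 and 312 in IA, a difference of -0.05 (adjusted p = 0.705) with a 95% interval of -0.17 to 0.08. Keap1, its inhibitor, was higher in IA at 72.2, 80.1 and 79.3 CPM against 66.7, 63.4 and 53.7 CPM in MetSA and 43.3, 41.1 and 38.4 in M, a difference of 0.33 (SE 0.08, adjusted p = 0.0132). That call was lost without IA replicate 2 or 3 or MetSA replicate 3 (adjusted p up to 0.0587), and 10.9% of Keap1 exons overlap another gene. Mafk, a small MAF partner of NRF2, rose by 0.53 (SE 0.10, adjusted p = 0.00542) and kept its call under every alternative setting. Gclc, the catalytic subunit of glutathione synthesis, differed by 0.06 (adjusted p = 0.662) with an interval of -0.08 to 0.21, and Txnrd1, thioredoxin reductase, by 0.11 (adjusted p = 0.479) with an interval of -0.06 to 0.29. Against medium Gclc changed by -0.53 for IA and -0.60 for MetSA on the log2 scale, so both acids lowered it (adjusted p = 6.15e-06 and 3.18e-06). Nqo1, a quinone reductase, had few counts, at 1.32, 1.58 and 1.48 CPM in MetSA and 1.30, 2.22 and 1.31 in IA, and its interval of -0.38 to 0.66 leaves a difference of over 1.5-fold possible.

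All 21 peroxiredoxin and thioredoxin genes had an interval within 1.5-fold either way, beside 64.1% of all genes. Of the 21, none was called higher and 3 were called lower, beside 3.97% and 2.15% of all genes. The 3 were Sesn1 (a stress-induced sestrin) at -0.32 (SE 0.07, adjusted p = 0.0078), Sod2 (mitochondrial superoxide dismutase) at -0.28 (SE 0.06, adjusted p = 0.0148) and Gpx1 (a glutathione peroxidase) at -0.25 (SE 0.07, adjusted p = 0.0396). Prdx5 (ENSMUSG00000024953, chromosome 19, 6906697 to 6910106 on GRCm38), a mitochondrial and peroxisomal peroxiredoxin, stood at 115, 113 and 131 CPM in M, 211, 199.6 and 170.1 in MetSA and 199, 211 and 209.6 in IA. Its difference between the acids was 0.09 (SE 0.08, adjusted p = 0.541), with an interval of -0.07 to 0.26, while its log2 differences from medium were 0.79 for IA and 0.70 for MetSA. The acid groups overlapped and both lay above medium. Exons of Prdx5 overlap a gene on the opposite strand over 19.1% of their length. The Sesn1 call was lost without IA replicate 1 (adjusted p = 0.0553), that of Sod2 without IA replicate 1 or 3 or MetSA replicate 3 (adjusted p up to 0.1) and that of Gpx1 in 8 of 22 alternative settings, each without 1 library. The list held 3 higher and 1 lower without MetSA replicate 3. Sod2 shares 12.8% of its 100-base stretches with other genes.

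The other stress lists were small, and over all genes 3.97% were called higher and 2.15% lower. An interval within 1.5-fold either way was found for 64.1% of all genes. None of 14 glutathione transferases was called by edgeR, with 1 higher and 3 lower at an unadjusted p under 0.05 and 0 and 0 with DESeq2. None of 14 heat shock chaperones was called, with 2 higher and 1 lower at an unadjusted p under 0.05 and 0 and 0 with DESeq2. None of 5 metallothionein and zinc genes was called, with 2 higher and 0 lower at an unadjusted p under 0.05 and 0 and 0 with DESeq2. Hspa1a, the inducible chaperone of the HSP70 family, which shares 48.6% of its 100-base stretches with other genes, differed by 0.31 (adjusted p = 0.5) with an interval of -0.18 to 0.80, and Mt1, a metallothionein, by -0.46 (adjusted p = 0.381) with an interval of -1.04 to 0.13. Of 21 unfolded protein response genes only Herpud1 was called, and 20 had an interval within 1.5-fold either way. Of 32 genes of the ATF4 response, 1 was called higher and 2 lower. Mthfd2, a mitochondrial folate enzyme, rose by 0.45 (SE 0.09, adjusted p = 0.00772), Psat1, of serine synthesis, fell by 0.52 (adjusted p = 0.0144), and Eif4ebp1, a translation repressor, fell by 0.36 (adjusted p = 0.0225). Atf3, a stress transcription factor, differed by 0.18 (adjusted p = 0.12) with an interval of 0.04 to 0.31. The Psat1 call was lost without IA replicate 1 or 3 or MetSA replicate 3 or in the fit of the 6 libraries alone (adjusted p up to 0.0815) and the Eif4ebp1 call without IA replicate 2 or 3 or MetSA replicate 1 or 2 (adjusted p up to 0.0894). The ATF4 list held 2 higher and 1 lower without MetSA replicate 3.

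Cholesterol synthesis genes were higher in IA than in MetSA. Macrophages raise these genes through SREBP2 when sterol is short. Of 25 tested members, 11 were called higher in IA and none lower, beside 3.97% and 2.15% of all genes. The median was 0.28 and 24 values were above 0, beside 6620 of 14113 genes. The count was 10 without MetSA replicate 3 with a median of 0.29, and 8 to 11 when any single library was left out. Cyp51 (ENSMUSG00000001467, chromosome 5, 4081145 to 4104746 on GRCm38), lanosterol demethylase, stood at 34.0, 42.6 and 35.3 CPM in M, 59.0, 61.4 and 60.3 in MetSA and 80.8, 81.6 and 96.8 in IA. Its difference between the acids was 0.52 (SE 0.08, adjusted p = 0.00104), with every IA library above every MetSA library, and the call was kept under every alternative setting. Idi1, isopentenyl diphosphate isomerase, at 0.64 (SE 0.10, adjusted p = 0.00112) and Fdps, farnesyl diphosphate synthase, at 0.47 (SE 0.09, adjusted p = 0.00361) were named after their values were seen, with 0.62 (adjusted p = 0.00416) and 0.47 (adjusted p = 0.0101) without MetSA replicate 3. Other genes hold 15.8% of the 100-base stretches of Idi1 and 21.4% of those of Fdps. Against medium the list medians were 0.64 in IA and 0.36 in MetSA.

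Hmgcs1, an early synthase of the pathway, was named after its value was seen, at 91.3, 82.6 and 90.9 CPM in MetSA and 107, 111 and 131 CPM in IA with a difference of 0.40 (SE 0.08, adjusted p = 0.00424). It is shown because its window (chr13:119690101-119690350, plus strand, RefSeq on GRCm38.p6) is the only one of 22 windows of the list (4.55%) with the letters TCACNCCAC of the sterol regulatory element on either strand, which occurred in 1.24% of all windows. Capitals mark the match, 137 bases before the start.
Hmgcs1: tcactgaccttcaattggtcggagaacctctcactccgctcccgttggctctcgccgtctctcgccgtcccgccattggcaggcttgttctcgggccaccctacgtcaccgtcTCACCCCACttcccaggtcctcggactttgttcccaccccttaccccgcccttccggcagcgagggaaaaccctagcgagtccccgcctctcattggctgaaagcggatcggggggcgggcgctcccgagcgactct

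Of 17 genes of LXR signalling and fatty acid synthesis, 3 were called higher and none lower, beside 3.97% and 2.15% of all genes. Scd2, a desaturase, rose by 0.51 (SE 0.09, adjusted p = 0.00191), Mylip, a ubiquitin ligase, by 0.26 (SE 0.06, adjusted p = 0.0132) and Abcg1, a cholesterol exporter, by 0.26 (SE 0.07, adjusted p = 0.023). The Abcg1 call was lost without IA replicate 1 or 3 or MetSA replicate 3 or with no scaling factor (adjusted p up to 0.0953) and the Mylip call without IA replicate 1 or with no scaling factor (adjusted p up to 0.0666). The list held 2 higher and 0 lower without MetSA replicate 3.

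Several genes of hypoxia signalling and glycolysis were lower in IA than in MetSA. HIF-1 drives many of them when oxygen is low or when succinate accumulates. Of 33 tested, 8 were called lower and none higher, beside 2.15% of all genes called lower, with a median of -0.15. With MetSA replicate 3 left out it held 0 higher and 6 lower with a median of -0.13, and without IA replicate 1 or 3 it held 5 lower. Pdk1 (ENSMUSG00000006494, chromosome 2, 71873224 to 71903858 on GRCm38), a kinase that shuts pyruvate out of the citric acid cycle, stood at 85.5, 88.3 and 78.0 CPM in M, 83.0, 86.7 and 86.3 in MetSA and 55.7, 63.4 and 55.8 in IA. Its difference between the acids was -0.55 (SE 0.07, adjusted p = 0.000187), and the MetSA libraries overlapped those of M while every IA library lay below both. Pfkl, a phosphofructokinase, stood at 56.4, 56.8 and 54.1 CPM in M, 89.0, 87.2 and 88.8 in MetSA and 61.9, 71.6 and 66.5 in IA, a difference of -0.41 (SE 0.06, adjusted p = 0.000699). Pfkl was thus highest in MetSA. Ndrg1, a hypoxia-induced gene, differed by -0.60 (SE 0.10, adjusted p = 0.00219). These 3 calls were kept under every alternative setting. The other lower calls, named after their values were seen, were Egln3, an oxygen sensor, at -1.18 (adjusted p = 0.00357), Slc2a1, the glucose transporter GLUT1, at -0.34 (adjusted p = 0.00892), Eno1, enolase, at -0.25 (adjusted p = 0.0274), Bnip3, a mitophagy receptor, at -0.35 (adjusted p = 0.0365) and Ankrd37 at -0.83 (adjusted p = 0.0399). The last 3 lost their calls without MetSA replicate 3 (adjusted p = 0.0953, 0.179 and 0.126), while Mif, a cytokine under HIF-1 control, gained one at -0.57 (adjusted p = 0.000981). The symbol Aldoa, aldolase, stands for 2 identifiers of the table, the abundant one at -0.10 (interval -0.22 to 0.03, adjusted p = 0.38) and the other, at no more than 0.468 CPM in these 6 libraries, at 1.28 (interval 0.24 to 2.33, adjusted p = 0.14). Gapdh differed by -0.17 (adjusted p = 0.0966) with an interval of -0.29 to -0.05. Other genes hold 20.9% of the 100-base stretches of Gapdh, 20.4% of those of Eno1 and 24.8% of those of Mif, and 26.4% of Ankrd37 exons overlap other genes. Against medium the list medians were -0.0028 in IA and 0.17 in MetSA.

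The HIF-1 core letters ACGTG occurred in 25 of 45 windows of this list (55.6%) and in 19.6% of all windows. Among genes called lower they occurred in 26.1% of windows and among genes called higher in 19.3%, beside 24.9% of windows of all genes tested, so the lower calls lay near that background.

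Enzymes of the citric acid cycle, which include the target of itaconate, were close between the acids. Of 23 intervals, 21 lay within 1.5-fold either way, with 1 gene called higher and 1 lower. Over all genes 64.1% had such an interval, 3.97% were called higher and 2.15% lower. These shares are the background for each list of this paragraph. Sdha, the catalytic subunit of succinate dehydrogenase, stood at 265, 236 and 245 CPM in MetSA and 250.2, 252 and 240.3 in IA, a difference of -0.01 (adjusted p = 0.967) with an interval of -0.12 to 0.11. Sdhb, its iron-sulfur subunit, differed by 0.04 (adjusted p = 0.812) with an interval of -0.10 to 0.18. Idh2, mitochondrial isocitrate dehydrogenase, was lower in IA at 34.4, 37.8 and 37.4 CPM against 49.2, 42.2 and 50.6 CPM in MetSA, a difference of -0.37 (SE 0.08, adjusted p = 0.00707). Ogdh, of the oxoglutarate dehydrogenase complex, was higher by 0.25 (SE 0.07, adjusted p = 0.0287), a call lost in 6 of 22 alternative settings (adjusted p up to 0.0961). None of 28 nuclear-encoded respiratory chain genes was called by edgeR, with 1 higher and 2 lower at an unadjusted p under 0.05 and 1 and 0 with DESeq2, and 23 had an interval within 1.5-fold either way. None of 12 mitochondrially encoded mRNAs was called, with 0 higher and 4 lower at an unadjusted p under 0.05 and 0 and 2 with DESeq2, though all 12 values were below 0 with a median of -0.53, and -0.25 without MetSA replicate 3.

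Cell division genes were lower in IA than in MetSA. The mean log2 CPM of the mitosis list was 4.18, 4.12 and 4.13 in M, 3.51, 3.45 and 3.67 in MetSA and 2.92, 3.22 and 3.04 in IA, so no group overlapped another. Of 26 tested members of the mitosis list, 16 were called lower in IA and none higher, beside 2.15% and 3.97% of all genes. The median was -0.52 and 25 values were below 0. Leaving out MetSA replicate 3 gave 10 lower calls with a median of -0.44, and without IA replicate 1 or 3 the count was 8 or 9. Against medium the medians were -1.18 in IA and -0.61 in MetSA. Cdc20 (ENSMUSG00000006398, chromosome 4, 118432901 to 118437352 on GRCm38), the activator of the anaphase-promoting complex, stood at 11.9, 11.4 and 12.6 CPM in M, 6.30, 6.36 and 7.98 in MetSA and 2.87, 4.44 and 3.46 in IA, a difference of -0.94 (SE 0.15, adjusted p = 0.00112). Top2a, topoisomerase II alpha, stood at 126, 118 and 105 CPM in M, 77.9, 73.2 and 82.5 in MetSA and 58.3, 59.8 and 51.9 in IA, a difference of -0.46 (SE 0.08, adjusted p = 0.00155). Plk1, a mitotic kinase, differed by -0.73 (SE 0.13, adjusted p = 0.00257). Each of these 3 showed no overlap between the acids and kept its call under every alternative setting.

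The windows of Cdc20 (chr4:118437344-118437593, minus strand) and Top2a (chr11:99024190-99024439, minus strand) are printed from RefSeq on GRCm38.p6 because both carry the cell cycle homology letters TTTGAA, given in capitals for either strand. The match begins 18 bases before the start of Cdc20, and 179 and 23 bases before that of Top2a. These letters occurred in 16 of 22 windows of the mitosis list (72.7%) and in 17.9% of all windows. Among genes called lower they occurred in 17.7% of windows and among genes called higher in 12.7%, beside 12.4% for all genes tested.
Cdc20: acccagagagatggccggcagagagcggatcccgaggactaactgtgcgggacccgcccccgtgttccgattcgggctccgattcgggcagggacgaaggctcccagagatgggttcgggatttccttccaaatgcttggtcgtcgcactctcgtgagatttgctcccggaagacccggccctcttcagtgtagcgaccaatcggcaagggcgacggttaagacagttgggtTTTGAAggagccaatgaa
Top2a: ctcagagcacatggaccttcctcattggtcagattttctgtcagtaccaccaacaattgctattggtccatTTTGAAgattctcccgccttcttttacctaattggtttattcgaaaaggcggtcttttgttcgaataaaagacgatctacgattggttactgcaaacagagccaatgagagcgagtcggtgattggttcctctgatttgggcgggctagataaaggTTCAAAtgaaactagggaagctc

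Replication genes were less clearly separated. Of 26 tested, 5 were called lower and 1 higher, beside 2.15% and 3.97% of all genes, with a median of -0.26. The lower ones were Tk1 (thymidine kinase 1) at -0.51 (SE 0.11, adjusted p = 0.00871), Uhrf1 at -0.46 (adjusted p = 0.0212), Ccne1 (cyclin E1) at -0.68 (adjusted p = 0.0232), Rrm2 (ribonucleotide reductase) at -0.59 (adjusted p = 0.0437) and Mcm7 (a helicase subunit) at -0.34 (adjusted p = 0.0439), the last 2 named after their values were seen. With MetSA replicate 3 left out only Tk1 was called, and no member was called lower without IA replicate 1 or 3. The list also held 3 lower calls without M replicate 2, MA replicate 3 or MetSA replicate 1. Pcna, the sliding clamp, was higher in IA by 0.26 (SE 0.07, adjusted p = 0.0431), a call lost in 10 of 22 alternative settings (adjusted p up to 0.155), and 10.1% of its 100-base stretches occur in other genes. Myc, the growth transcription factor, stood at 32.9, 27.4 and 26.3 CPM in M, 15.2, 14.8 and 16.9 in MetSA and 11.9, 11.5 and 10.3 in IA, a difference of -0.48 (SE 0.10, adjusted p = 0.0074), and was the only call among 23 MYC and ribosome biogenesis genes. Its call was lost without IA replicate 3 (adjusted p = 0.0576). Of 21 p53 targets, Mdm2 (0.30) and Plk2 (0.26) were called higher and Sesn1 and Btg2 (-0.33) lower. The Mdm2 call was lost without IA replicate 1 (adjusted p = 0.0515), that of Plk2 without IA replicate 1 or MetSA replicate 2 or 3 or with no scaling factor (adjusted p up to 0.126) and that of Btg2 in 8 of 22 alternative settings (adjusted p up to 0.197). Cdkn1a, the cell cycle inhibitor p21, differed by 0.22 (adjusted p = 0.0591) with an interval of 0.08 to 0.36, and was called in 7 of 22 alternative settings, DESeq2 and limma-voom among them (adjusted p down to 0.0128).

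Several TGF-beta response genes were higher in IA, with 5 of 18 called higher and 1 lower, beside 3.97% and 2.15% of all genes. The list median was 0.07 and 10 of 18 values were above 0, so the list as a whole showed no clear shift. The count of 5 was the same without MetSA replicate 3. Tgfbi, a secreted matrix protein, stood at 126, 146 and 160.4 CPM in M, 156, 184 and 188 in MetSA and 275, 284 and 255 in IA, a difference of 0.62 (SE 0.09, adjusted p = 0.000408). Pmepa1, a membrane adaptor that damps SMAD signalling, stood at 1.24, 0.909 and 1.17 CPM in MetSA and 1.96, 2.93 and 2.28 in IA, a difference of 1.12 (SE 0.18, adjusted p = 0.00112). Both showed no overlap and kept their calls under every alternative setting. Skil, a SMAD corepressor, at 0.40 (SE 0.07, adjusted p = 0.00211) and Tgfbr1, a receptor chain, at 0.28 (SE 0.07, adjusted p = 0.0195) were named after their values were seen. Tgfb1, which encodes the ligand, was lower in IA by -0.25 (SE 0.06, adjusted p = 0.0219), a call lost without IA replicate 1 or 3 or MetSA replicate 2 (adjusted p up to 0.122).

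NF-kB target genes divided, with 3 of 30 called higher and 2 lower, beside 3.97% and 2.15% of all genes, and a median of 0.03. Cxcl2, a neutrophil chemokine, stood at 6.12, 7.11 and 5.81 CPM in M, 5.97, 6.05 and 6.40 in MetSA and 3.36, 3.49 and 2.53 in IA, a difference of -0.97 (SE 0.16, adjusted p = 0.00107). The IA libraries were thus lower than both other groups. Il1rn, the interleukin 1 receptor antagonist, rose from 50.0, 47.3 and 47.8 CPM in MetSA to 80.5, 65.4 and 57.1 CPM in IA, a difference of 0.48 (SE 0.09, adjusted p = 0.00455). Both calls were kept under every alternative setting. Ccl2, a monocyte chemokine, and Nos2, inducible nitric oxide synthase, were called at 0.79 (adjusted p = 0.0373) and 2.27 (adjusted p = 0.0466) and lost that call without MetSA replicate 3 (adjusted p = 0.0916 and 0.151), and the other lower call was Sod2. The NF-kB list held 1 higher and 1 lower without MetSA replicate 3. Nos2 was measured at no more than 1.27 CPM in any of these libraries. Il1b, interleukin 1 beta, differed by 0.04 (adjusted p = 0.936) with an interval of -0.37 to 0.45, and Tnf by 0.05 (adjusted p = 0.827) with an interval of -0.14 to 0.23. Nfkbiz, which encodes the nuclear factor IκBζ, stood at 106, 113 and 97.2 CPM in MetSA and 86.5, 97.3 and 102 in IA, a difference of -0.14 (adjusted p = 0.347) with an interval of -0.32 to 0.03. Il10, an anti-inflammatory cytokine, differed by 0.22 (adjusted p = 0.45) with an interval of -0.10 to 0.54. Il6 had too few counts to test.

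Of 9 class II antigen presentation genes 1 was called lower and none higher, with a median of -0.50 (-0.27 without MetSA replicate 3). Over all genes 3.97% were called higher and 2.15% lower, the background for each list of this paragraph. Ciita, the class II transactivator, stood at 6.09, 8.93 and 7.69 CPM in MetSA and 3.88, 4.66 and 4.54 CPM in IA, a difference of -0.80 (SE 0.18, adjusted p = 0.0148), a call lost without IA replicate 1 or 3 or MetSA replicate 2 (adjusted p up to 0.0766). Ccrl2, an atypical chemokine receptor, rose by 0.66 (SE 0.09, adjusted p = 0.000307), and Cxcr4 by 0.24 (adjusted p = 0.0316), these being 2 calls of 12 chemokine receptors. Axl, a receptor for apoptotic cells, stood at 309, 322 and 250.1 CPM in MetSA and 438, 405 and 505 in IA, a difference of 0.61 (SE 0.12, adjusted p = 0.0122), and Fcgr1, the high-affinity IgG receptor, differed by 0.60 (SE 0.12, adjusted p = 0.0165). They were the 2 calls of 20 Fc, scavenger and uptake receptors. Tgm2, transglutaminase 2, rose by 0.46 (SE 0.06, adjusted p = 0.000363), opposite to Egr2 in the alternative activation list, where 1 of 15 was called higher and 1 lower. Mmp13 (0.71) and Mmp8 (0.48) were higher and Mmp9 and Timp2 (-0.24) lower among 12 matrix metalloproteinase genes. The call of Mmp13 was lost without MetSA replicate 3, in the fit of the 6 libraries alone or with a block for replicate number (adjusted p up to 0.0579). That of Mmp8 was lost without IA replicate 1 (adjusted p = 0.0791) and that of Timp2 without IA replicate 1 or 3 (adjusted p up to 0.0734). The Fcgr1 call was lost without IA replicate 1 or 3, in the fit of the 6 libraries alone or with the block (adjusted p up to 0.0622). The Cxcr4 call was lost without IA replicate 1 or 3 or MetSA replicate 1 or 2 (adjusted p up to 0.138). It was also lost with upper-quartile scaling, with no scaling factor and in the fit of the 6 libraries alone.

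Lysosomal genes gave 4 higher calls and 1 lower of 30, with 28 intervals within 1.5-fold either way. Over all genes 64.1% had such an interval, 3.97% were called higher and 2.15% lower, the background here and for the iron genes below. Lamp2, a lysosomal membrane glycoprotein, rose by 0.27 (SE 0.06, adjusted p = 0.00772) and kept its call under every alternative setting. Grn, Psap and Tfeb lost theirs in 11 of 22, 14 of 22 and 11 of 22 alternative settings, with adjusted p up to 0.2, 0.207 and 0.207. Of 15 iron genes, Steap3, an iron reductase (0.30), and Slc11a1, a metal exporter of the phagosome (0.20), were called higher and Hmox1 lower. The Steap3 call was lost without IA replicate 1 or 2 or MetSA replicate 2 or 3 or with no scaling factor (adjusted p up to 0.146) and that of Slc11a1 in 14 of 22 alternative settings (adjusted p up to 0.193). Of the 15 genes, 14 had an interval within 1.5-fold either way, and Fth1, the ferritin heavy chain, named after its value was seen, differed by 0.22 (adjusted p = 0.0608).

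Macrophage markers gave 3 higher calls of 16, among them Fcgr1 and Tlr4 (the lipopolysaccharide receptor, 0.29), and 15 intervals within 1.5-fold either way. Over all genes 3.97% were called higher and 64.1% had such an interval. The Tlr4 call was lost without IA replicate 1 (adjusted p = 0.105). Summed markers of neutrophils, lymphocytes and stromal cells overlapped between the acids. The 12 listed neutrophil markers summed to 248 to 297 CPM in IA and 257 to 274 in MetSA, and 11 passed the filter. Mmp8 was the only one called. The sums did not overlap for the 10 dendritic cell markers, at 11.1 to 16.5 CPM in IA and 9.25 to 9.78 in MetSA. Xcr1, a chemokine receptor of cross-presenting dendritic cells, was the only call, at 2.33, 1.74 and 1.83 CPM in MetSA and 4.56, 5.08 and 4.94 in IA, a difference of 1.30 (SE 0.22, adjusted p = 0.00181). The separation of the dendritic cell sums rested on Xcr1, and without it the sums of the other markers overlapped between the acids. Clec9a and Flt3, also on the dendritic cell list, differed by -0.03 (adjusted p = 0.982) and -0.29 (adjusted p = 0.878). None of the 10 markers of this list had an interval within 1.5-fold either way, so larger differences remain possible for them. Lymphocyte markers summed to 25.9 to 36.4 CPM in IA and 27.1 to 33.4 in MetSA, most of it Cd4, with Ncr1 and Gzma at 0 in all 12 libraries. Stromal markers summed to 29.3 to 35.0 CPM in IA and 24.8 to 47.4 in MetSA. Mast cell and basophil markers overlapped too, at 0.912 to 1.363 CPM in IA and 1.067 to 1.503 in MetSA. Erythroid sums did not overlap and were lower in IA, at 1.13 to 1.405 CPM against 1.441 to 1.957 in MetSA. Only 1 of the 9 listed erythroid markers passed the filter, and it was not called.

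**Figure D5:**
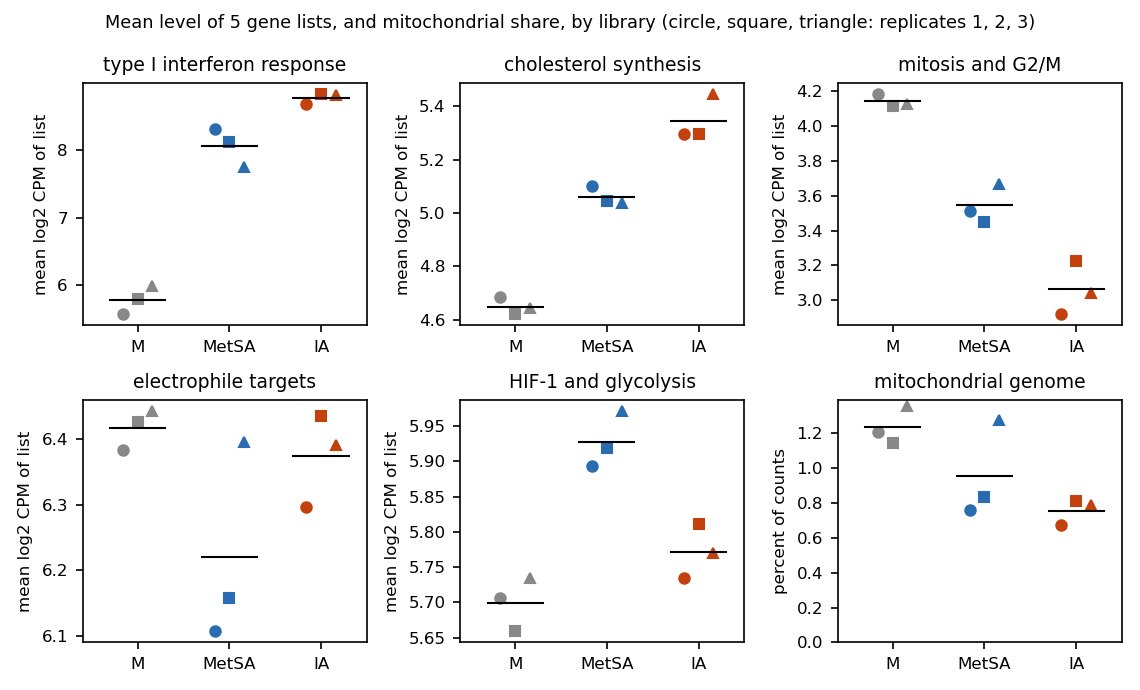
Mean log2 CPM of 5 gene lists and, in the last panel, the percentage of counts on mitochondrially encoded genes (y axes) for each library of M, MetSA and IA. Symbols are single libraries and bars are group means. In the interferon panel IA lies at 8.67 to 8.82, above MetSA at 7.75 to 8.30, and in the electrophile panel MetSA replicate 3 at 6.39 lies among the IA values of 6.30 to 6.44.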

How the data were processed

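Poly(A)-selected RNA was sequenced from 12 libraries. The authors deposited whole-number counts per gene, not normalised. Alignment to mm10 with STAR and counting with featureCounts are named in the submitters' processing notes, with no version, annotation or strand setting given in the sources used here. Of deposited counts from 1 to 9, 66.1% were even, against 50.9% of counts of 1000 or more, for a cause not tested, and halved counts were 1 alternative. The 127 genes without a symbol held 0.0267% of counts. Genes kept by filterByExpr (14113 of 32285, 99.98% of counts) were fitted with edgeR 4.0.16 (R 4.3.3) in 1 quasi-likelihood model of all 4 groups with TMM scaling, robust estimation and 8 residual degrees of freedom. CPM use TMM library sizes. Adjusted p-values are Benjamini-Hochberg over all genes tested. DESeq2 1.42.0 and limma 3.58.1 were alternatives. An exact permutation test of 3 against 3 libraries cannot go below p = 0.1 and was not used.

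Comparison, gene lists and naming rule were chosen with earlier results of these data known. Named genes were the 12 largest rises and falls among called, non-overlapping, non-predicted genes of at least 10 CPM, up to 3 called members per list by adjusted p, up to 2 against the list median, and 30 preset key genes. Beyond that rule, Suclg2, Hmgcs1, Idi1, Fdps, Prdx1, Cat, Rrm2, Mcm7, Skil, Tgfbr1, Ccl2, Nos2, Clec9a, Flt3, Cd4, Lyz2, Fth1, Sdhb, Egln3, Slc2a1, Eno1, Bnip3, Ankrd37, Mif and the genes of the closing section were named after their values were seen. For genes of the report, shares of 100-base stretches found in other genes and exon overlaps of 10% or more are given, from GENCODE M21 on GRCm38. The genes of the closing section were not searched for these. Coordinates are 1-based. Some named genes are not reported here.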

Additional observations from a re-analysis of the deposited data

How the results depend on the processing

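Of 96 named genes that were called, 44 kept their call under all 22 alternatives and none changed direction. Genes called higher (560) and lower (304) numbered 357 and 844 with no scaling factor, 917 and 566 with no filter on low counts, and 882 and 531 with the replicate block. Same-numbered IA and MetSA libraries had correlations of 0.0772, 0.0537 and 0.0122 in their deviations, all under the 0.1 asked for pairing. Of these 3, 2 lay above the highest value of differently numbered libraries (0.0163). In every other pair of groups all same-numbered values lay above the differently numbered ones. They reached 0.135 for M and MA replicate 1 and 0.169 for MA and MetSA replicate 2. All groups carry the same replicate numbers in their sample titles. What same-numbered cultures share was not tested, and the main fit did not use the numbers. DESeq2 called 913 higher, and the fit of the 6 IA and MetSA libraries alone called 146 lower. The 63 genes at least 2-fold apart became 103 with no filter, 29 with the stricter filter and 40 with 6 libraries. Without any 1 library the 3 counts ran from 320 to 640, 97 to 361 and 30 to 99, the third at 36 without IA replicate 1 or 3, 99 without MetSA replicate 1, 41 without MetSA replicate 2 and 30 without MetSA replicate 3. List counts moved as follows. Interferon genes higher (25) numbered 16 with the replicate block and 12 to 26 without 1 library. Class I genes higher (6) numbered 14 with no filter and 3 to 13 without 1 library. HIF-1 genes lower (8) numbered 17 with no scaling factor, 5 with 6 libraries and 5 to 9 without 1 library. Replication genes lower (5) numbered 10 with no scaling factor, 8 with no filter, 3 with limma-voom and 0 to 7 without 1 library. Mitosis genes lower (16) numbered 10 with 6 libraries and 8 to 16 without 1 library. The electrophile list's higher call (1) numbered 4 with DESeq2, 0 with no scaling factor, 5 with no filter, 0 with 6 libraries, 4 with the replicate block, 2 with limma-voom and 0 to 6 without 1 library. The smaller fits hold fewer libraries; for the rest the cause was not tested. The counts of genes bounded within 1.5-fold and of cholesterol, TGF-beta and interferon pathway genes stayed within 1.5 times their values throughout. Among named genes the block lost 6 calls (Hmox1, Fcgr1, Mmp13, Cfb, Slfn1 and Ifit1bl1, adjusted p = 0.0502 to 0.0719) and gained 3 (Gapdh, Atf3 and Cdkn1a). With 3 libraries a group and a median SE of 0.11 on the log2 scale, small differences of genes with few counts were not detectable.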

Other observations

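Some of the widest differences between the acids lay in genes with few counts, outside every list above. Saa3, an acute-phase serum amyloid A, stood at 0.576, 0.277 and 0.234 CPM in MetSA and 4.68, 1.90 and 1.01 CPM in IA, a log2 difference of 2.80 (SE 0.58, adjusted p = 0.00966), with IA replicate 1 far above the other IA libraries. Clic5, an intracellular chloride channel protein, stood at 0.576, 0.435 and 0.429 CPM in MetSA and 1.75, 2.54 and 1.69 CPM in IA, a log2 difference of 2.05 (SE 0.32, adjusted p = 0.000886), against 0.363, 0.407 and 0.344 CPM in medium. Stra6l, a retinol-binding protein receptor, stood at 3.31, 3.68 and 2.97 CPM in MetSA and 8.35, 7.49 and 7.49 CPM in IA, a log2 difference of 1.23 (SE 0.15, adjusted p = 0.000187). For Clic5 and Stra6l the MetSA and M libraries lay close together and the IA libraries stood above both. Akap12, a kinase scaffold, stood at 2.18, 0.949 and 0.820 CPM in MetSA and 3.53, 3.37 and 4.64 CPM in IA, a log2 difference of 1.55 (SE 0.32, adjusted p = 0.00707). Htr2b, a serotonin receptor, stood at 2.53, 1.68 and 1.68 CPM in MetSA and 5.15, 3.27 and 4.22 CPM in IA, a log2 difference of 1.10 (SE 0.19, adjusted p = 0.0018), with 2.34, 2.26 and 2.16 CPM in medium.

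Genes that were lower in IA included Cdc42ep2, an effector of the GTPase CDC42, at 4.69, 5.81 and 6.24 CPM in MetSA and 2.56, 2.86 and 2.78 CPM in IA, a log2 difference of -1.03 (SE 0.17, adjusted p = 0.00112). Rbpms, an RNA-binding protein, stood at 4.61, 4.84 and 6.54 CPM in MetSA and 2.24, 2.78 and 2.64 CPM in IA, a log2 difference of -1.06 (SE 0.19, adjusted p = 0.00211), with 3.20, 2.96 and 4.43 CPM in medium. Cdkn2a, which encodes a cell cycle inhibitor, stood at 0.618, 0.949 and 1.09 CPM in MetSA and 0.256, 0.397 and 0.295 CPM in IA, a log2 difference of -1.48 (SE 0.37, adjusted p = 0.0239). Lrrc32, which anchors latent TGF-beta at the cell surface, stood at 0.823, 1.11 and 1.25 CPM in MetSA and 0.256, 0.555 and 0.380 CPM in IA, a log2 difference of -1.41 (SE 0.31, adjusted p = 0.0108), against 3.42, 3.20 and 2.60 CPM in medium. These 9 genes were picked after their values were seen, and no test beyond the fit across all genes was made on them.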
